A study of Mus musculus with 79 samples.

Results

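The contractile and simple keratin genes Acta2, Tagln, Cnn1, Myl9, Tpm1, Tpm2, Krt8, Krt18 and Krt19 were followed through 3 sets of RNA-seq data from mouse embryonic stem cells given retinoic acid (RA). The genes were chosen by their levels in the clones before RA, where Acta2, Tagln and the keratins separate 1 deletion clone, H12, from the others, so those levels are given below as a description. They are 9 of 19482 genes with reads in the clones, 9 of 19526 in E14 cells and 9 of 21193 in SCC1-mAID cells, and 20 of the transcripts in each table (10 of Tpm1, 3 of Tpm2 and 1 of each other gene).

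Acta2 encodes smooth muscle alpha-actin. Its partners here are transgelin (Tagln, also SM22-alpha), which binds actin, calponin 1 (Cnn1), which binds actin and restrains the myosin ATPase, and a regulatory light chain of smooth muscle and non-muscle myosin (Myl9). The tropomyosins Tpm1 and Tpm2 lie along the actin filament. Contractile genes of this kind are classical targets of the serum response factor SRF, which binds the CArG box, and of its actin-sensing coactivators of the myocardin and MRTF family. Krt8, a type II keratin, pairs with the type I keratins Krt18 and Krt19 to form the intermediate filaments of simple epithelia, which appear early in the mouse embryo in trophectoderm and in extra-embryonic endoderm. RA makes embryonic stem cells leave pluripotency.

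Nuclear RNA of the clones was sequenced from H12 and E3, both with the genotype E14;HoxTransEdel, and from G4, with the genotype E14;HoxTransEwt. Each clone had 2 libraries per time, 42 in all, from 0 h over 2, 4 and 6 h to 24, 48 and finally 74 h of 1 uM RA. The second set, from wild-type E14 cells, is total RNA in 25 libraries. It has 2 libraries at 0 h, 3 at 24 h and 4 for every other time (2, 4, 6, 48 h and a last one titled 72 h, for which the characteristics give 74 h). The third is nuclear RNA of SCC1-mAID cells of the genotype E14;Rosa26::Tir1;Scc1-mAID-eGFP, in which auxin destroys the cohesin subunit SCC1. It holds 12 libraries, 3 each with RA for 4 h and auxin for 6 h, with auxin alone, with RA alone and untreated, with auxin at 500 uM. All cells share the E14 background and were grown in serum with leukemia inhibitory factor (LIF). H12, E3 and G4 are single clones, so the deletion and the clone cannot be told apart in 1 clone against another, and the deletion itself was taken from the labels. Nothing in the labels says that replicates came from separate cultures, so p-values measure the spread between these libraries, which may be technical.

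Promoter windows from RefSeq (build GRCm38.p6, 250 bases before to 50 bases after the transcript start) were matched for 7 of the 9 members, since Tagln and Krt19 have no entry. They were searched for the CArG box on both strands, a pattern that reads the same on each. Of the 7, only the Myl9 window (chr2:156775214-156775513, plus strand) held the box with no mismatch, at position -161 from the start, against 1.63% of all 32851 windows. The windows of Acta2 (chr19:34255324-34255623, minus strand) and Tpm1 held none without a mismatch. When 1 mismatch was allowed, a rule chosen after the first result, 3 of the 7 windows held a match, those of Acta2, Myl9 and Tpm1, against 21.1% of all windows, and those of Cnn1, Tpm2, Krt8 and Krt18 held none. Acta2 and Myl9 are printed because Acta2 had the largest fitted difference between H12 and G4 at 2 to 6 h and Myl9 alone had the full box. Capitals mark the full box in Myl9 and the 2 matches with 1 mismatch in Acta2, at positions -84 and -34. A match is a run of letters, not a measured binding site.
Acta2: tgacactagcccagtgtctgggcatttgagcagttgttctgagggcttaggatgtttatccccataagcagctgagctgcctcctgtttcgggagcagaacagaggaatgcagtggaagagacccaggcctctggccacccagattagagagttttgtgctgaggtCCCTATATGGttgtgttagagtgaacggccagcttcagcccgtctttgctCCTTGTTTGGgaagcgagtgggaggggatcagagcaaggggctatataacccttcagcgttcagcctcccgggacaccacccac
Myl9: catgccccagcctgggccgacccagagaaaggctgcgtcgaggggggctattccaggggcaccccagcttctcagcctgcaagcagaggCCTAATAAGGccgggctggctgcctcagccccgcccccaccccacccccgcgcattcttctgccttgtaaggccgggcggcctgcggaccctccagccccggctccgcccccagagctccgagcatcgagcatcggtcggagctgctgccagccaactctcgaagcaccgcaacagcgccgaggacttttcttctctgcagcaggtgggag

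Library depth ran from 4754309 to 10450047 reads in the clones, from 2352114 to 21082331 in E14 cells and from 3126363 to 7499040 in SCC1-mAID cells. After the filter on low counts, all 9 members were tested in the clones and in E14 cells and 8 in SCC1-mAID cells, where Acta2 had 1 to 11 reads per library and was left out. The stem cell label was checked with 10 pluripotency markers, whose summed level in the clones was 1422 to 2155 CPM (counts scaled to a common library size) at 0 h and 120.0 to 316 CPM at 74 h, with Dppa3 at 0 in E3 at 74 h. Some features of the libraries touch the results. Among clones E3 and G4, replicate 1 was often higher than replicate 2 for these genes. Among E14 libraries at 2 to 6 h, those numbered 1 and 2 lay above those numbered 3 and 4 without overlap for 8 of the 9 members, and the 0 h group holds numbers 3 and 4 only. How many of all genes divide by number in this way was not counted.

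Before RA, the smooth muscle genes Acta2 and Tagln and the keratins were at few reads in H12. Acta2 was at 2.47 and 0.660 CPM in H12, against 31.0 and 19.3 CPM in E3 and 29.5 and 28.9 CPM in G4. Tagln was at 0.651 and 0.495 CPM in H12, against 50.8 and 19.5 CPM in E3 and 45.3 and 22.4 CPM in G4. The H12 values of Tagln rest on 3 and 5 reads. Krt8 was at 2.34 and 1.15 CPM in H12, against 43.0 and 16.1 CPM in E3 and 32.6 and 13.3 CPM in G4. Its partner Krt18 was at 1.69 and 0.990 CPM in H12, against 42.2 and 17.6 CPM in E3 and 28.0 and 14.4 CPM in G4. Krt19 was at 0.911 and 1.32 CPM in H12, against 13.9 and 4.90 CPM in E3 and 7.96 and 4.60 CPM in G4. In all 5 genes both H12 libraries lay below all 4 libraries of E3 and G4. In bulk RNA, fewer cells that express a gene and less RNA per cell cannot be told apart.

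The other contractile genes separated less widely at 0 h. Tpm1 was at 50.9 and 45.9 CPM in H12, against 183 and 114 CPM in E3 and 187 and 143 CPM in G4. Myl9 was at 5.08 and 1.98 CPM in H12, against 5.82 and 4.48 CPM in E3 and 8.09 and 4.22 CPM in G4, so its clones overlapped. The fitted log2 fold change of H12 over G4 at 0 h, given with no test, ran from -0.75 for Myl9 to -5.82 for Tagln. All 9 were negative, where 12% of all genes were called in either direction in the same contrast, and nothing is read from this count because the contrast chose the members. Tagln's fitted value depends on the few reads in H12.

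**Figure D1:**
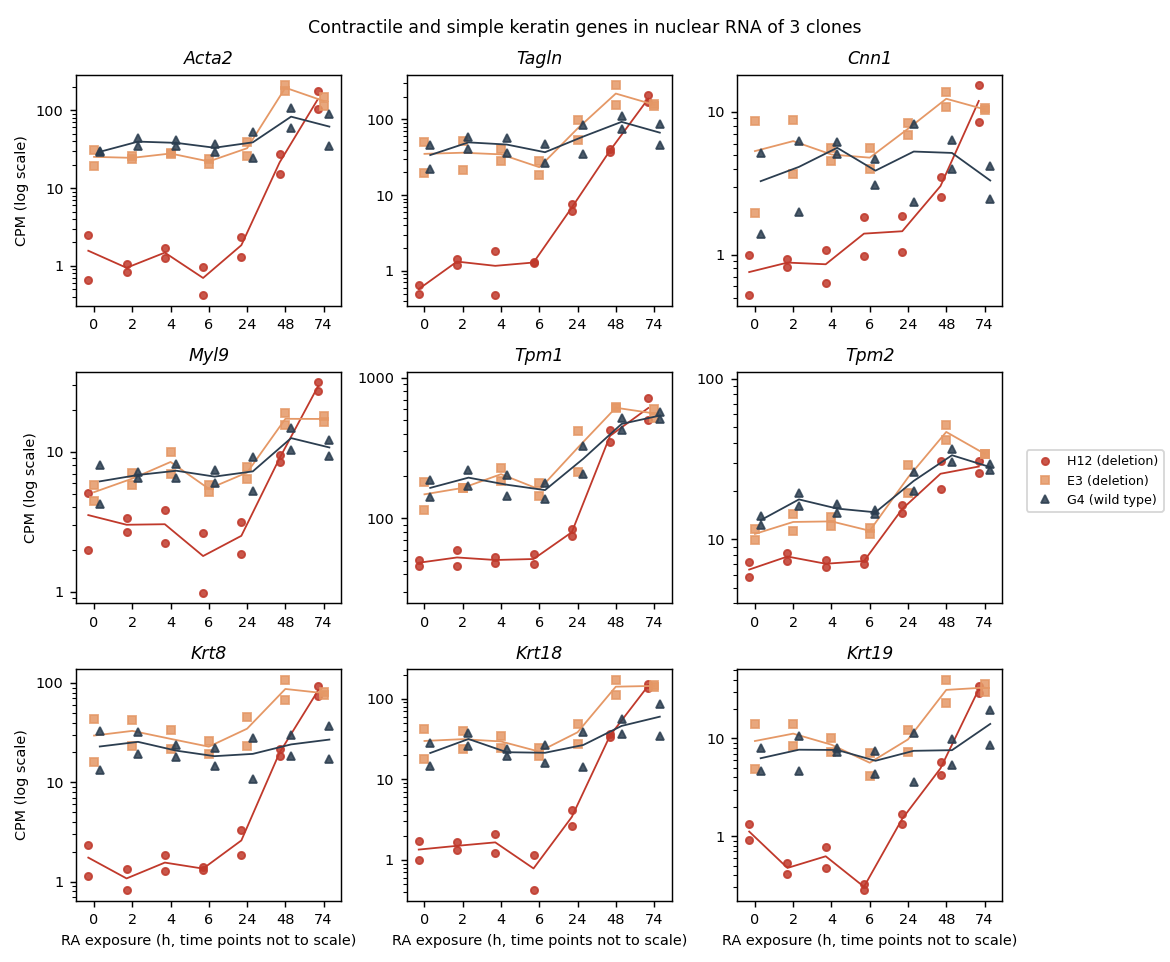
CPM of the 9 members on log axes in nuclear RNA of clones H12, E3 and G4 from 0 to 74 h of RA; points are libraries (2 per clone and time), lines join means. H12 lies lowest up to 24 h, except for Myl9 at 0 h. At 74 h Acta2 is at 175 and 102 CPM in H12, 114 and 149 CPM in E3 and 88.8 and 34.3 CPM in G4.

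After 2 to 6 h of RA, in libraries other than those at 0 h, the same separation was measured. All 9 members were lower in H12 than in G4 and all 9 were lower in H12 than in E3 (edgeR's quasi-likelihood test, Benjamini-Hochberg adjusted p under 0.05). Of all genes tested, 18.4% were lower in H12 than in G4 and 16.6% lower in H12 than in E3. These libraries come from the same clones as the 0 h libraries, and the members were chosen with earlier results of these data known. The direction is therefore not independent of the choice.

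Among the contractile genes, Acta2 and Tagln differed most. Acta2 had a lowest, median and highest level of 0.422, 1.02 and 1.69 CPM in 6 H12 libraries, against 20.6, 24.4 and 28.1 CPM in 6 of E3 and 28.9, 35.9 and 44.1 CPM in 6 of G4. No H12 library came near the other clones, and the log2 fold change of H12 was -5.18 ± 0.37 (SE) over G4, with an adjusted p of 2.12e-11, and -4.60 ± 0.38 over E3. Tagln ran from 0.477 to 1.85 CPM in H12, from 18.2 to 51.2 CPM in E3 and from 26.2 to 58.4 CPM in G4. Its log2 fold change was -5.12 ± 0.44 over G4 and -4.60 ± 0.45 over E3. Each H12 library held 3 to 11 reads of Acta2 and 3 to 12 of Tagln. Tpm1 stayed well expressed in H12, at 45.6 to 59.9 CPM, against 145 to 227 CPM in E3 and 138 to 220.1 CPM in G4, with log2 fold changes of -1.76 ± 0.16 over G4 and -1.77 ± 0.16 over E3. Cnn1, Myl9 and Tpm2 had log2 fold changes over G4 of -2.10 ± 0.45, -1.45 ± 0.24 and -1.11 ± 0.13. The 6 H12 libraries lay below all 12 libraries of E3 and G4 for each of these 6 contractile genes. How many of all genes separate this fully was not counted, here, at 0 h or for the keratins below.

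The 3 keratins were lower by a similar amount. Krt8 had a lowest, median and highest level of 0.826, 1.32 and 1.85 CPM in H12, against 19.4, 24.9 and 42.4 CPM in E3 and 14.5, 20.8 and 31.8 CPM in G4. Krt18 ran from 0.422 to 2.07 CPM in H12, from 19.4 to 39.4 CPM in E3 and from 15.9 to 37.7 CPM in G4. Krt19 ran from 0.281 to 0.770 CPM in H12, from 4.14 to 14.1 CPM in E3 and from 4.34 to 10.7 CPM in G4. Again no H12 library overlapped the other clones. Per H12 library these values rest on 4 to 12 reads for Krt8, 3 to 13 for Krt18 and 2 to 5 for Krt19. The sizes of the fold changes depend on these few reads. The log2 fold changes of H12 over G4 were -3.98 ± 0.42 for Krt8, -4.31 ± 0.41 for Krt18 and -3.91 ± 0.49 for Krt19, with adjusted p-values of 2.8e-08, 4.73e-09 and 3.39e-07 (edgeR). Over E3 they were -4.33 ± 0.41, -4.46 ± 0.41 and -4.12 ± 0.48.

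E3 carries the same deletion genotype as H12. Between E3 and G4 at 2 to 6 h, edgeR called none of the 9 members, where 5.91% of all genes were called. Acta2 and Tpm2 passed an unadjusted p under 0.05, lowest adjusted p 0.0687 for Tpm2 (edgeR). DESeq2 and limma called 0 members, while a fit of the compared groups only called 2 and the replicate number as a block gave 1. The log2 fold changes of E3 over G4 ran from -0.58 ± 0.23 for Acta2 to 0.35 ± 0.28 for Krt8.

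Averaged over 24 and 48 h, all 9 members were still lower in H12 than in G4 and than in E3. Of all genes, 12.9% and 12% were lower. The gap narrowed between the times. Acta2 was at 2.39 and 1.31 CPM in H12 at 24 h, against 39.3 and 25.6 CPM in E3 and 52.7 and 24.6 CPM in G4. At 48 h it was at 27.7 and 15.0 CPM in H12, against 210.3 and 178 CPM in E3 and 106 and 58.8 CPM in G4. Tagln was at 7.54 and 6.16 CPM in H12 at 24 h, against 98.3 and 53.5 CPM in E3 and 84.4 and 34.5 CPM in G4. At 48 h Tagln was at 37.2 and 40.6 CPM in H12. E3 was then at 285 and 155 CPM and G4 at 111 and 75.2 CPM. No H12 library overlapped either clone for Tagln. At 48 h H12 overlapped G4 for Krt8, at 18.3 to 21.6 CPM against 18.5 to 29.7 CPM. H12 also overlapped G4 there for Krt19 (4.18 to 5.71 against 5.32 to 9.87 CPM). For Tpm2 it was at 20.6 to 30.5 CPM against 30.2 to 36.5 CPM in G4. The log2 fold change over both times of H12 over G4 was -3.11 ± 0.34 for Acta2, -2.18 ± 0.36 for Tagln and -1.54 ± 0.39 for Krt8. Without replicate 1 of G4 at 24 h, 4 of the 9 calls against G4 were kept, those of Acta2, Tagln, Tpm1 and Krt18, and the 9 calls against E3 were kept with every library left out in turn.

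E3 stood above G4 in 2 keratins, averaged over 24 and 48 h. Krt8 was at 45.9 and 23.5 CPM at 24 h and 107 and 66.8 CPM at 48 h in E3, against 27.8 and 10.9 CPM and 29.7 and 18.5 CPM in G4. The groups overlapped at 24 h and not at 48 h, and the log2 fold change was 1.33 ± 0.33 (adjusted p 0.0209, edgeR). Krt19 had a log2 fold change of 1.19 ± 0.33 (adjusted p 0.0476, edgeR), and Krt18, at 1.06 ± 0.30, was not called (adjusted p 0.0574, edgeR). Of all genes, 2.95% were called in this contrast and 0.961% were higher in E3. These calls, made without a replicate block, rest on few libraries. Leaving out replicate 1 of E3 at 24 or 48 h, or replicate 2 of G4 at 24 or 48 h, removed both. Leaving out replicate 1 of G4 at 48 h left Krt8 alone. With the replicate number as a block, 4 members were called, where 715 of 15923 genes were. Krt8 then had an adjusted p of 7.47e-06 and Krt19 of 0.000336 (edgeR).

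At 74 h, H12 was above G4 in most members and no member was called against E3. Acta2 was at 175 and 102 CPM in H12, against 114 and 149 CPM in E3 and 88.8 and 34.3 CPM in G4. Krt18 was at 153 and 138 CPM in H12, against 141 and 148 CPM in E3 and 85.1 and 34.8 CPM in G4. For these genes H12 overlapped E3 and lay above both G4 libraries, while Tpm2, at 30.8 and 25.9 CPM in H12, lay below both E3 libraries at 34.0 and 34.1 CPM. Of the 9 members, 7 were higher in H12 than in G4, all but Tpm1 and Tpm2, where 12.2% of all genes were higher. The log2 fold changes were 1.16 ± 0.37 for Acta2, 1.49 ± 0.46 for Tagln, 1.82 ± 0.55 for Cnn1 and 1.44 ± 0.29 for Myl9. In the keratins they were 1.61 ± 0.46 for Krt8, 1.27 ± 0.41 for Krt18 and 1.16 ± 0.43 for Krt19.

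These 74 h calls against G4 rest on 2 libraries a side. Without replicate 2 of G4, only Myl9 was called (log2 fold change 1.28, adjusted p 0.021, edgeR). Krt19 was called by neither DESeq2 nor limma (adjusted p 0.0535 and 0.0579). Without replicate 1 of H12, Tagln, Cnn1 and Myl9 were called, and without replicate 2 of H12, Acta2, Myl9 and Krt8 were. In a fit of the compared groups only, 5 were called, without Acta2 (adjusted p 0.266, edgeR) and Krt18 (0.0976, edgeR). Against E3, edgeR, DESeq2 and limma called 0 of 9 members at 74 h, where edgeR called 7.72% of all genes, and Myl9 alone passed an unadjusted p under 0.05. Against G4, edgeR called 0 of 9 members in E3 at 74 h, where 4.36% of all genes were called and 7 members passed an unadjusted p under 0.05. All 9 log2 fold changes of E3 over G4 were above 0, from 0.05 ± 0.25 for Tpm1 to 1.63 ± 0.55 for Cnn1. Without replicate 1 of G4 at 74 h, 4 members were called in E3 against G4, and a fit of the compared groups only called 3. With the replicate number as a block 6 were called, where 1071 of 15923 genes were. The labels do not say that the numbers pair libraries, while 38 of 42 clone libraries correlated best with a library of their own number.

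**Figure D2:**
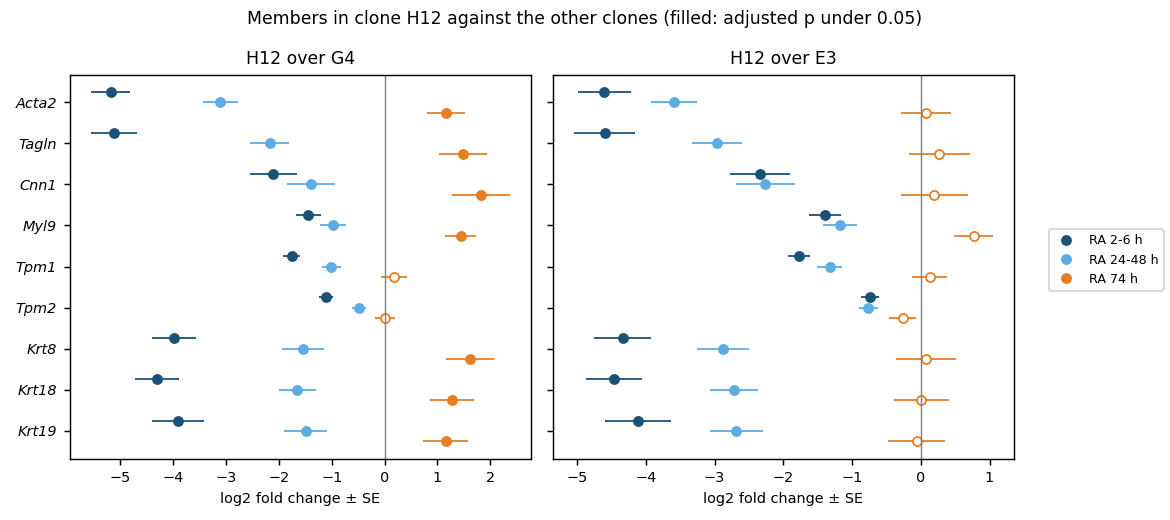
log2 fold changes with SE of the 9 members in H12 over G4 (left) and H12 over E3 (right) at 2 to 6 h, 24 to 48 h and 74 h of RA; filled points have an adjusted p under 0.05. Acta2 in H12 over G4 is at -5.18, -3.11 and 1.16 in the 3 windows.

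The rise during RA was tested within each clone as 74 h against 2 to 6 h. In H12 all 9 members rose, by log2 fold changes of 7.10 ± 0.39 for Acta2, 7.22 ± 0.46 for Tagln, 6.87 ± 0.42 for Krt18 and 5.94 ± 0.45 for Krt8, while the tropomyosins rose by 3.56 ± 0.19 (Tpm1) and 1.94 ± 0.16 (Tpm2). In E3 all 9 rose, from 0.98 ± 0.41 for Cnn1 to 2.42 ± 0.28 for Acta2. The call of Cnn1 in E3 (adjusted p 0.0401, edgeR) was lost with DESeq2 (0.0557), limma (0.0836) and no low-count filter (0.0511), and without replicate 2 at 2, 4 or 6 h or either library at 74 h. In G4, 6 rose, from 0.64 ± 0.26 for Myl9 to 1.62 ± 0.19 for Tpm1, and Tagln (0.61 ± 0.37), Cnn1 (-0.41 ± 0.50) and Krt8 (0.34 ± 0.38) were not called. Of all genes, 32.7% rose in H12, 31.8% in E3 and 31.3% in G4. Replicate 1 of G4 at 74 h carries part of this: without it only Tpm1 and Tpm2 were called in G4, and the log2 fold change of Acta2 was -0.07.

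The difference between the clones in this change was tested directly. It was larger in H12 than in G4 for all 9 members, where 13.9% of all genes had a larger change in H12, and larger in H12 than in E3 for 8, all but Tpm2, where 6.87% did. The difference in log2 change from G4 ran from 1.12 ± 0.23 for Tpm2 to 6.61 ± 0.68 for Tagln. The early levels that enter this difference are those described above, and the end levels are those at 74 h given above. For Acta2, H12 over E3 was at -4.60 at 2 to 6 h and 0.07 at 74 h. Its difference in change from E3, 4.68, thus mostly restates the early gap, which is not independent of the choice of members.

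Genes around the members were read for comparison. For each member, the other tested genes whose start lies within 500 kb had a median log2 fold change of H12 over G4 at 2 to 6 h between -0.30 (6 genes around Acta2) and 0.16 (21 around Tpm2). Over E3 these medians ran from -0.18 to 0.19. The change from 2 to 6 h to 74 h was read too. Its medians around Acta2 were 1.79 in H12, 1.54 in E3 and 0.84 in G4. All 6 genes were called in each clone, where 65.2%, 62% and 61.8% of all genes were. In H12 the median around Tpm1 was 1.44, and around the other members from -0.41 (Krt8) to 0.25 (Tpm2). For H12 over G4 at 74 h, medians ran from -0.18 (Cnn1) to 0.77 (Tpm1). In mm10, as the files give it, Acta2 spans chr19:34240336-34255373, Myl9 chr2:156775464-156781657 and Tpm2 chr4:43513726-43523554. Tagln (chr9:45929628-45936058), Cnn1 (chr9:22099253-22109221) and Tpm1 (chr9:67022593-67049213) share chromosome 9 at separate places, and Krt19 spans chr11:100140811-100145919. Krt8 (chr15:101996711-102004342) and Krt18 (chr15:102028216-102032026) lie close together. Krt8 and Krt18 are neighbours on chromosome 15 with 23873 bases between them, pointing away from each other, and medians around them excluded the members. Overlaps with other genes limit single values: Tagln shares 95 bases with Pcsk7 on the opposite strand, and Cnn1 lies over Mir680-2 on the opposite strand, and how strand entered the counting is not given in the sources used here.

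Other genes of the same systems were read from lists at 2 to 6 h, H12 over G4. The lists were chosen with earlier results of these data known. In this contrast 34.4% of all genes were called, 16% higher and 18.4% lower. The median log2 fold change of all genes was -0.0025. Of 14 tested smooth muscle genes outside the members, 2 were higher and 6 lower, with a median of -0.32. Called genes included cardiac alpha-actin Actc1 at -3.37 ± 0.53, skeletal alpha-actin Acta1 at -2.80 ± 0.51 and Pgm5, a protein of muscle attachment sites, at 1.56 ± 0.31. Of 17 SRF and MRTF factors and targets, 3 were higher and 11 lower, with a median of -0.96. Fhl2, a LIM domain protein, was at -3.22 ± 0.32, the matricellular protein gene Cyr61 at -2.74 ± 0.27 and zyxin (Zyx), a focal adhesion protein, at -2.52 ± 0.16. Of 16 non-muscle relatives, 9 were lower and 0 higher, with a median of -0.40, among them calponin 2 (Cnn2) at -1.53 ± 0.16 and the tropomyosin Tpm4 at -1.28 ± 0.15.

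Keratin partners and epithelial genes were read in the same contrast. Of 15 tested, 14 were lower in H12 than in G4 and 0 higher, where 18.4% of all genes were lower. Their median was -0.998. The tight junction genes Cldn7 and Cldn6 were at -2.90 ± 0.45 and -1.73 ± 0.25, and the adhesion molecule Epcam at -2.12 ± 0.15. Against E3, 13 of 15 were lower and 0 higher, where 16.6% of all genes were lower. Among 7 other intermediate filament genes, 1 was higher and 4 lower, with nestin (Nes) at -2.46 ± 0.38, vimentin (Vim) at -0.94 ± 0.11 and peripherin (Prph) at 1.08 ± 0.20.

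Markers of cell types that also use these genes were read in the same contrast. Of 10 fibroblast markers, 5 were lower and 2 higher, and the fibrillar collagen genes Col3a1, Col1a2 and Col1a1 were at -4.56 ± 0.73, -4.10 ± 0.46 and -3.16 ± 0.34. The summed level of the fibroblast list still overlapped, at 312 to 372 CPM in H12, 298 to 394 CPM in E3 and 357 to 402 CPM in G4, with Lum at 0 in H12 and in E3. Of 6 mesothelium markers, 3 were lower and 1 higher (Krt7 at -1.66 ± 0.49, Gpm6a at -1.65 ± 0.24, Wt1 at -1.47 ± 0.11; Krt7 also stands in the keratin list). Their sum was 33.8 to 58.4 CPM in H12, 100.4 to 173 CPM in E3 and 80.8 to 142 CPM in G4. Of 6 trophoblast markers, 3 were lower and 0 higher (Eomes at -0.92 ± 0.28, Tfap2c at -0.79 ± 0.16, Gata2 at -0.76 ± 0.28), with a sum of 26.4 to 31.9 CPM in H12, 45.0 to 56.3 CPM in E3 and 40.0 to 52.7 CPM in G4 and Elf5 at 0 in G4. Of 12 extra-embryonic endoderm markers, 2 were higher and 2 lower (Sox7 at 1.29 ± 0.46, Gata6 at 0.82 ± 0.18, Dab2 at -0.58 ± 0.14). The last sum was 539.8 to 692 CPM in H12, 629 to 958 CPM in E3 and 604 to 869 CPM in G4, with Ttr at 0 in H12 and Afp at 0 in E3 and G4. The part of these cell type markers in the members' levels was not tested.

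Of 5 striated muscle markers, 2 were higher and 1 lower in H12 than in G4 at 2 to 6 h (Myl4 at 0.65 ± 0.20, Ryr2 at 0.44 ± 0.12, Myh6 at -0.57 ± 0.21). Of 10 pluripotency markers, 3 were higher and 1 lower, with Tbx3 at 1.76 ± 0.18, Zfp42 at 0.53 ± 0.18 and Dppa3 at -1.46 ± 0.46. Of 11 genes responsive to TGF-beta, a signal that induces contractile genes in fibroblasts, 3 were lower and 0 higher, with Tgfb2 at -1.07 ± 0.18, Skil at -0.62 ± 0.10 and Id3 at -0.54 ± 0.20.

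**Figure D3:**
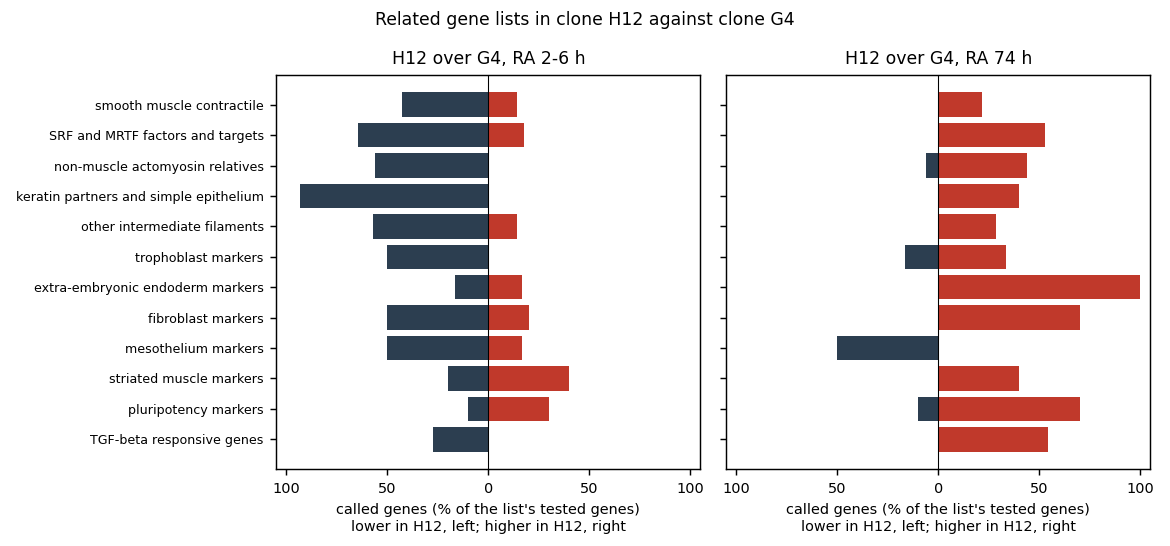
Share of each list's tested genes called higher (right, red) or lower (left, dark) in H12 than in G4 at 2 to 6 h and at 74 h of RA. Keratin partners are lower in 14 of 15 genes at 2 to 6 h, and extra-embryonic endoderm markers are higher in 12 of 12 genes at 74 h.

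The same lists were read at 74 h, in a contrast where 25.1% of all genes were called, 12.2% higher and 12.9% lower. In H12 over G4, SRF and MRTF factors and targets were higher in 9 of 17 and lower in 0, and keratin partners higher in 6 of 15 and lower in 0. Smooth muscle genes were higher in 3 of 14 and lower in 0, and non-muscle relatives higher in 7 of 16 and lower in 1. Extra-embryonic endoderm markers were higher in all 12, with the yolk sac protein gene Ttr at 3.65 ± 0.50, Sox7 at 3.25 ± 0.38 and Gata4 at 3.23 ± 0.36. Their sum was 14249 and 16022 CPM in H12, against 2024 and 2476 CPM in E3 and 1930.3 and 2427 CPM in G4. Against E3, 11 of the 12 were higher and 0 lower, where 4.43% of all genes were higher. Fibroblast markers were higher than in G4 in 7 of 10, with sums of 1689 and 1791 CPM in H12, 1080.1 and 1099 CPM in E3 and 467 and 707 CPM in G4. Mesothelium markers were lower in 3 of 6, with sums of 53.9 and 82.4 CPM in H12, 219.7 and 229.6 CPM in E3 and 160.9 and 166 CPM in G4. The remaining lists in the same contrast were higher and lower in 2 and 0 of 7 (other intermediate filaments), 2 and 1 of 6 (trophoblast), 2 and 0 of 5 (striated muscle), 7 and 1 of 10 (pluripotency) and 6 and 0 of 11 (TGF-beta). The part of these markers in the members' levels was not tested.

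In total RNA of E14 cells, levels can be compared between genes per length. At 0 h Tpm1 had the highest FPKM (fragments scaled for exon length and depth) of the members, at 48.0 ± 3.1 (SD, n = 2). Krt18 followed at 15.5 ± 2.4 FPKM, Tagln at 12.9 ± 0.94 FPKM and Krt8 at 10.4 ± 1.7 FPKM. Krt19 was at 6.55 ± 1.4 FPKM, Myl9 at 5.24 ± 0.29 FPKM, Tpm2 at 3.77 ± 0.38 FPKM, Acta2 at 3.39 ± 0.072 FPKM and Cnn1 at 1.00 ± 0.11 FPKM. Krt19 and Myl9 differed by less than the SD of Krt19, and Tpm2 and Acta2 by less than the SD of Tpm2. All 9 members were measurable in E14 cells before RA.

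At 2 to 6 h of RA, the E14 libraries divided by replicate number. Acta2 at 2 h was at 93.8, 133, 19.0 and 13.6 CPM in replicates 1 to 4, at 4 h at 77.3, 109, 16.4 and 15.9 CPM, and at 6 h at 55.4, 133, 7.29 and 14.6 CPM. At 0 h, replicates 3 and 4 were at 15.3 and 15.9 CPM. Krt8 at 2 to 6 h ran from 111 to 199 CPM in replicates 1 and 2 and from 23.8 to 33.6 CPM in replicates 3 and 4, and was at 37.2 and 29.5 CPM at 0 h. Tagln, Cnn1, Tpm1, Tpm2, Krt18 and Krt19 divided likewise, with no overlap between the number pairs at 2 to 6 h, while Myl9 ran from 8.17 to 16.0 CPM in replicates 1 and 2 and from 8.60 to 14.5 CPM in replicates 3 and 4. The labels do not say what the numbers stand for, and whether they mark a batch was not tested.

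Cell type markers moved with the numbers to unequal extents. Up to 24 h, the sum of 11 fibroblast markers was 779.8 to 1470.0 CPM in the 7 libraries numbered 1 and 2, against 253 to 448 CPM in the 10 numbered 3 and 4. The sum of 16 smooth muscle genes outside the members was 378 to 423 CPM in numbers 1 and 2, against 182 to 276 CPM in numbers 3 and 4, and that of 17 SRF and MRTF genes 3551 to 5071 CPM against 2695 to 3142 CPM. The pluripotency markers overlapped, at 2008 to 2661 CPM in numbers 1 and 2 and 1973 to 2662 CPM in numbers 3 and 4, as did the mesothelium markers at 21.6 to 38.3 CPM and 23.7 to 41.6 CPM and the trophoblast markers at 79.5 to 120.4 CPM and 91.6 to 162 CPM. In the same order, keratin partners and epithelial genes overlapped, at 2569 to 3763 CPM against 1681 to 3824 CPM. Other intermediate filament genes did not, at 962 to 1423 CPM against 751 to 904 CPM. The 0 h libraries are in numbers 3 and 4 only. The extra-embryonic endoderm markers ran from 966 to 1402 CPM in numbers 1 and 2, with Ttr at 0. In numbers 3 and 4 they ran from 527 to 1148 CPM. The other lists given here had no gene at 0 in either set of libraries. Their part in the members' levels was not tested.

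With all replicates, no member was called at 2 to 6 h or at 24 h against 0 h in E14 cells, where edgeR called 3.3% and 27.4% of all genes. No member passed an unadjusted p under 0.05 at either time, and DESeq2 and limma also called 0, while a fit of the compared groups only called 3 at 24 h. Acta2 had log2 fold changes of 1.87 ± 1.07 at 2 to 6 h and 1.47 ± 1.20 at 24 h. With replicates 3 and 4 only, the numbers present at 0 h, Acta2 at 2 to 6 h was at -0.21 ± 0.47, and all 9 members but Myl9 (0.12 ± 0.15) had a value below 0. Krt19, at -0.43 ± 0.12, was the one called (adjusted p 0.0261, edgeR), where 5.17% of all genes were lower. At 24 h in these replicates, 4 members were higher, Tagln at 0.91 ± 0.30, Cnn1 at 1.19 ± 0.28, Tpm1 at 0.42 ± 0.14 and Tpm2 at 0.49 ± 0.14, where 20.1% of all genes were higher.

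**Figure D4:**
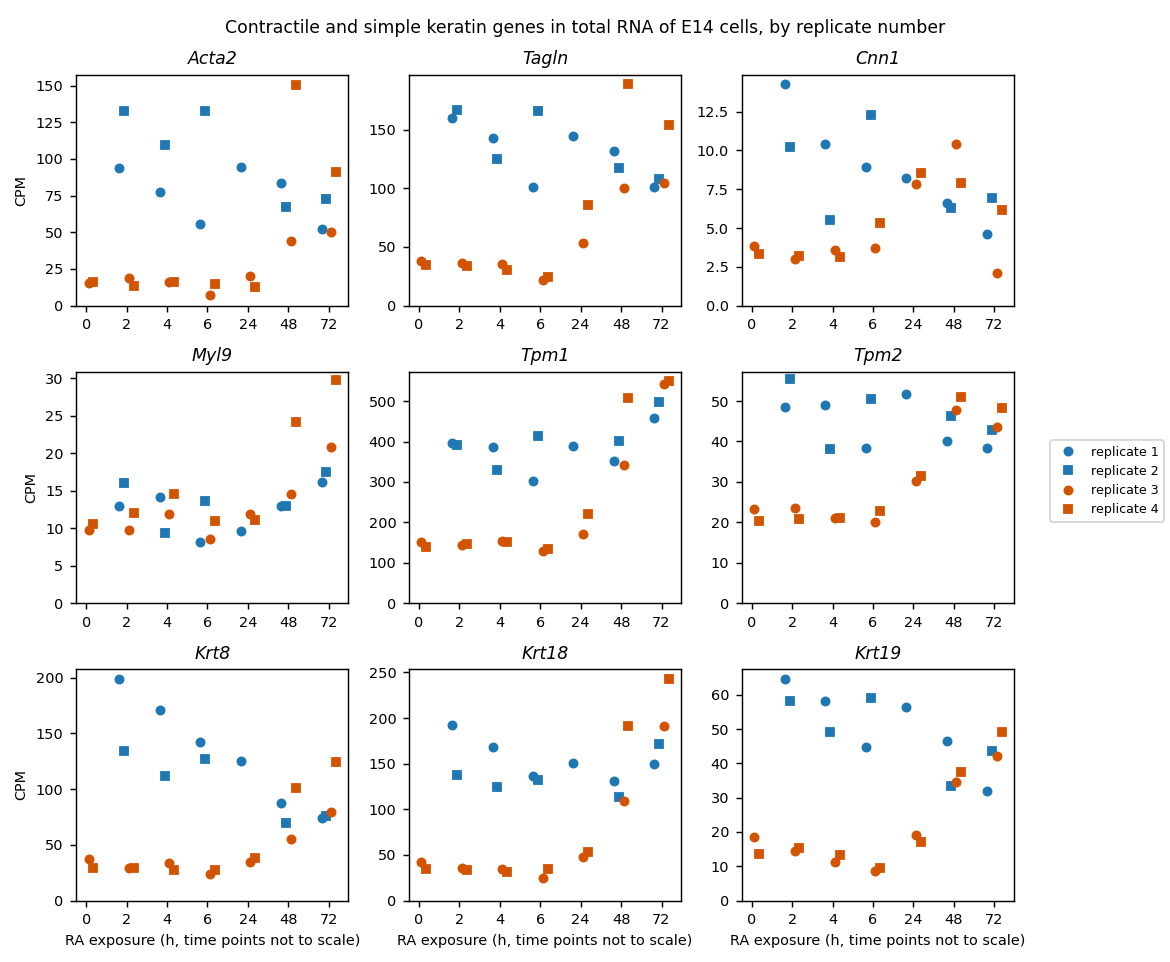
CPM of the 9 members in total RNA of E14 cells from 0 to 72 h of RA; points are libraries, with replicates 1 and 2 in blue and 3 and 4 in orange (0 h has replicates 3 and 4 only). Acta2 at 2 to 6 h runs from 55.4 to 133 CPM in replicates 1 and 2 and from 7.29 to 19.0 CPM in replicates 3 and 4.

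At 48 and 72 h replicates 1 and 2 no longer lay above 3 and 4 for Acta2 and Krt18. Acta2 was at 83.9, 67.1, 44.0 and 150.4 CPM in replicates 1 to 4 at 48 h and at 51.9, 72.5, 50.5 and 91.3 CPM at 72 h, so all libraries lay above those at 0 h. Krt18 was at 131, 114, 109 and 191 CPM at 48 h and at 150.1, 171, 191 and 242 CPM at 72 h, against 42.8 and 34.5 CPM at 0 h. At 72 h replicates 3 and 4 lay above 1 and 2 without overlap for Myl9, Tpm1, Tpm2, Krt8 and Krt18, with Myl9 at 20.9 and 29.7 CPM in replicates 3 and 4 and 16.1 and 17.4 CPM in replicates 1 and 2. With all replicates, 3 members were higher than at 0 h at 48 h, Myl9 at 0.66 ± 0.26, Tpm1 at 1.46 ± 0.55 and Tpm2 at 1.08 ± 0.43, where 28.9% of all genes were higher. At 72 h Myl9 at 1.04 ± 0.26, Tpm1 at 1.81 ± 0.56 and Krt18 at 2.29 ± 0.89 were higher, where 30.4% were. These counts depend on the fit: the compared groups only gave 9 calls at 48 h and 8 at 72 h, DESeq2 gave 6 at 48 h, and no low-count filter gave 1 at 48 h. Without either 0 h library, or without replicate 4 at 48 h, 0 members were called at 48 h, and without either 0 h library Myl9 alone was called at 72 h.

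With replicates 3 and 4 only, all 9 members were higher at 48 h and 8 at 72 h, all but Cnn1 at 0.11 ± 0.37, where 30.9% and 31.8% of all genes were higher. At 48 h Acta2 was at 2.60 ± 0.55, Tagln at 1.97 ± 0.29, Krt8 at 1.21 ± 0.23, Krt18 at 1.95 ± 0.21 and Krt19 at 1.17 ± 0.17. At 72 h Acta2 was at 2.14 ± 0.57, Tpm1 at 1.89 ± 0.14, Krt8 at 1.58 ± 0.23 and Krt18 at 2.47 ± 0.20. In replicates 1 and 2, which have no 0 h library, Krt8 was at 69.3 to 87.4 CPM at 48 h and 74.2 to 76.3 CPM at 72 h, below the 111 to 199 CPM of their 2 to 6 h libraries. Acta2 in the same replicates was at 55.4 to 133 CPM at 2 to 6 h and 51.9 to 72.5 CPM at 72 h, with overlap. No test was made within replicates 1 and 2.

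In SCC1-mAID cells all 9 members had reads in every library. Across the 12 libraries Acta2 ran from 0.268 to 2.89 CPM, Tagln from 1.34 to 3.15 CPM, Krt8 from 2.71 to 11.5 CPM and Krt18 from 3.07 to 12.3 CPM. Krt19 ran from 3.01 to 9.23 CPM, Tpm2 from 5.72 to 13.4 CPM, Myl9 from 2.56 to 5.77 CPM and Cnn1 from 0.318 to 3.94 CPM. Tpm1 was at 45.9 to 58.7 CPM. The tables were scaled separately, so these levels are not compared with those of the clones. RA for 4 h with auxin against auxin alone, auxin against untreated cells, RA against untreated cells and the interaction of auxin and RA called 0 of 8 tested members each in edgeR, DESeq2 and limma (0 of 6 by DESeq2 for auxin against untreated cells), where edgeR called 2.64%, 0.235%, 2.57% and 0% of all genes. Myl9 with auxin and RA against auxin was the one member with an unadjusted p under 0.05, at 5.75, 4.07 and 5.77 CPM with both and 2.86, 3.64 and 2.56 CPM with auxin alone (adjusted p 0.257, edgeR). Tagln had 5 to 19 reads per library. In simulated data for RA against untreated cells over 14031 genes, 72% of 2-fold and 98% of 4-fold changes were recovered. The changed genes were drawn at random from all tested genes, so recovery at the few reads of Tagln or Cnn1 is not known.

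Across libraries the members varied together. Over the 42 clone libraries, Pearson's r of log2 CPM between Acta2 and the other members ran from 0.83 (Tpm2) to 0.97 (Krt18), and between Krt8 and Krt18 it was 0.98. Over the 25 E14 libraries, r between Acta2 and Myl9 was 0.48, and between Acta2 and the keratins 0.92 to 0.94. The points share clones, times and depth, and the clone libraries include those at 0 h that chose the members, so these are descriptions. The genes outside the members with the highest r to Acta2 in the clones were Prss23 (0.96), Nlrp4e (0.95), Cnn2 (0.95), Zyx (0.94) and Prss8 (0.94), and in E14 cells Col1a1 (0.95), Anxa5 (0.94), Axl (0.94), Vim (0.94) and Tgfb2 (0.94). Those highest to Krt8 were Nlrp4e (0.97), Serinc5 (0.96), Frem2 (0.94), Fosl2 (0.93) and Rhbdf1 (0.93) in the clones, and Capn2 (0.96), Phldb2 (0.96), Prss23 (0.95), Cryab (0.95) and Pgf (0.94) in E14 cells.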

How the data were processed

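RNA was sequenced from E14 cells (total RNA, 25 libraries), clones H12, E3 and G4 (nuclear RNA, 42) and SCC1-mAID cells (nuclear RNA, 12). STAR, Bowtie2, SAMtools, DESeq2 and the builds mm10 and dm6 are named per the submitters' processing notes, without versions. The authors deposited signal values per transcript that are reads divided by 1 size factor per library, and for E14 cells also FPKM. From the values, whole reads were recovered within 0.10 read for at least 99.9966% of values, and depth is the sum of these read counts. Handling of strand and of reads with several matches is not given in the sources used here.

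One transcript per symbol, the one with most reads, was tested with edgeR 4.0.16 in R 4.3.3 (TMM, filterByExpr, robust quasi-likelihood fit over all groups of a set, Benjamini-Hochberg adjustment over all genes, call at adjusted p under 0.05, SE from the fold change and F). Before the main fits, the procedure was tested on simulated data with H12 against G4 at 2 to 6 h over 15923 genes, recovering 82% of 2-fold and 92% of 4-fold changes. For E14 cells at 48 h against 0 h over 15084 genes it recovered 60% and 90%. The changed genes were drawn at random from all tested genes and not at the members' levels. Log2 CPM used a prior count of 2. No pair of libraries of a group agreed within sampling noise (lowest chi-square per degree of freedom 2.31, over genes with 10 reads or more in the pair).

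The members and all gene lists were chosen with earlier results of these data known. All 9 members are named throughout, with up to 3 called genes of largest fold change per list, and the 5 genes outside the members most like Acta2 and Krt8. Alternatives were the authors' size factors, DESeq2 1.42.0, limma 3.58.1 (limma-trend on log2 of deposited signal plus a pseudocount of 1), no low-count filter, compared groups only, a replicate block, the longest transcript and leaving out each library. E14 fits with replicates 3 and 4 only were added after seeing the data.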

Additional observations from a re-analysis of the deposited data

Results flagged for a closer look

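In E14 cells, 1 library stood apart from the others in 3 of 45 combinations of a member and a group of 4 libraries. Chance flags about 1 in 20, so these 3 are near the share that chance gives. Replicate 4 had 154 CPM of Tagln at 72 h, 24.1 CPM of Myl9 at 48 h and 124 CPM of Krt8 at 72 h, each the highest of 4. The values of Tagln and Krt8 come from the same library.

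The change from 2 to 6 h to 74 h of RA differed between H12 and G4 by edgeR's interaction test in all 9 members, with both libraries of H12 at 74 h above all 6 H12 libraries at 2 to 6 h in each. In log2 units, H12 minus G4 was 6.34 for Acta2, 6.61 for Tagln, 3.93 for Cnn1, 2.89 for Myl9, 1.94 for Tpm1, 1.12 for Tpm2, 5.60 for Krt8, 5.58 for Krt18 and 5.07 for Krt19. H12 minus E3 was 4.68 for Acta2, 4.87 for Tagln, 2.53 for Cnn1, 2.16 for Myl9, 1.90 for Tpm1, 4.41 for Krt8, 4.47 for Krt18 and 4.06 for Krt19. These values use the early libraries of H12 in which Acta2, Tagln, Cnn1, Krt8, Krt18 and Krt19 had 2 to 13 reads per library. They are not independent of the choice of members, which was made by levels in the clones before RA.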

How the results depend on the processing

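The counts of members called in H12 over G4 and over E3 at 2 to 6 h, in H12 over E3 at 24 to 48 h, in H12 at 74 h against 2 to 6 h and in the change of H12 minus that of G4 stayed at 9 with each library left out in turn. Leaving out 1 library gave 4 to 9 calls for H12 over G4 at 24 to 48 h, 1 to 7 at 74 h, 0 to 3 for E3 over G4 at 24 to 48 h, 0 to 4 at 74 h, 8 to 9 within E3, 2 to 6 within G4, 7 to 8 for the change of H12 minus that of E3, 0 to 3 in E14 cells at 48 h and 1 to 3 at 72 h. Within G4, the log2 fold change of Acta2 ran from -0.070 without replicate 1 at 74 h to 1.30 without replicate 2.

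In E14 cells, replicates 3 and 4 only gave 1 call at 2 to 6 h, 4 at 24 h, 9 at 48 h and 8 at 72 h. At 2 to 6 h this turned Acta2 to -0.21, Tagln to -0.29, Cnn1 to -0.0097, Tpm1 to -0.026, Tpm2 to -0.022, Krt8 to -0.23, Krt18 to -0.26 and Krt19 to -0.43. A fit of the compared groups only gave 3 calls at 24 h, 9 at 48 h and 8 at 72 h. At 48 h DESeq2 gave 6 and no low-count filter gave 1. In the clones, a fit of the compared groups only gave 2, 1 and 3 calls for E3 over G4 at 2 to 6 h, 24 to 48 h and 74 h. At 74 h it gave 1 for H12 over E3 and 5 for H12 over G4, the latter against 7. No low-count filter gave 1 for E3 over G4 at 24 to 48 h, the authors' size factors 1 at 74 h, and limma 3 within G4. The cause of these changes was not tested.

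Same-numbered libraries of different groups correlated between -0.325 and 0.366 in the clones. With 2 libraries per group, differently numbered ones ran from -0.366 to 0.325, the same range with the sign turned, so the range cannot decide on pairing. Of 42 clone libraries, 38 correlated best with their own number, a hint of pairing from the data. The labels do not say that the numbers pair libraries. With the replicate number as a block, E3 over G4 gave 1, 4 and 6 calls at 2 to 6 h, 24 to 48 h and 74 h, and H12 over E3 1 at 74 h. Over all genes the block moved calls of E3 over G4 to 715 from 469 at 24 to 48 h and to 1071 from 695 at 74 h.

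Over all genes, calls in E14 cells at 2 to 6 h were 187 by limma and 1438 with replicates 3 and 4 only, against 498. A fit of compared groups only gave 149 calls for E3 over G4 and 2080 for H12 over E3 at 24 to 48 h, against 469 and 3948. The authors' size factors moved the median log2 fold change of all genes by 0.27 in E14 cells at 72 h, where 67.8% of calls were higher, against 50.9%. In SCC1-mAID cells they gave 72 calls for RA, against 361, 3 for auxin, against 33, and 47 for auxin with RA over auxin, against 370, and members called stayed at 0. Depth limits Acta2 in SCC1-mAID cells and Tagln in H12 at 0 h.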
